A study of Mus musculus with 2 samples.

Results

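The genes described here are the enzymes that make cholesterol, in pathway order, the SREBP transcription factors with the proteins that control them, and 3 other sterol-responsive genes. They were chosen by symbol from a list of 29 genes, of which 28 have at least 1 probe set annotated to them alone, among 18194 genes with such a probe set on the array. Acat2, the first thiolase of the route, has no probe set of its own in the annotation used and is not analysed here. The 28 genes are read by 60 probe sets, and all 28 were measured, meaning that the signal of the gene's brightest probe set reached a floor of 8.07 units on at least 1 array. Each of the 28 did so on both arrays, and 7 of their dimmer probe sets stayed below the floor on both.

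The study compared CCR4b RNAi with control RNAi in NIH3T3 cells, a mouse fibroblast line kept in medium with 10% serum. CCR4b, encoded by Cnot6l, is a deadenylase that shortens mRNA poly(A) tails as part of the CCR4-NOT complex. Cells of both groups had been infected with a retrovirus that expresses a short hairpin RNA, against CCR4b in one group and a control in the other. The labels give neither the hairpin sequences nor the time after infection, nor whether the cells were clones. Each group holds 1 array, so no value has a replicate error, no p-value can be given, and every difference below describes this pair of cultures only.

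Animal cells build cholesterol from acetyl-CoA through mevalonate and squalene, and a side branch of the same route supplies isoprenoids for prenylated proteins. SREBP proteins are made as membrane-bound precursors of the endoplasmic reticulum. When sterols are scarce, SCAP carries them to the Golgi, where a pair of proteases releases the active factor, and when sterols are plentiful, INSIG proteins hold SCAP back. SREBP-2 acts mainly on genes of sterol synthesis and uptake, and SREBP-1 more on genes of fatty acid synthesis. Serum lipoproteins are a second source of cholesterol for cultured fibroblasts.

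On the array of the CCR4b RNAi culture, most sterol synthesis enzymes had lower signals than on the array of the control RNAi culture, whereas most genes of the SREBP machinery differed by less than 1.5-fold. Of the 28 genes, 14 were at least 2-fold lower after CCR4b RNAi and none was 2-fold higher, a count of 0. Among all 11915 measured genes, 4.48% were lower by that much and 3.74% higher. The median log2 ratio of CCR4b RNAi over control RNAi was -0.95 for the 28 genes and -0.070 for all measured genes. At 1.5-fold, 17 of the 28 were lower and 0 higher, where 14.6% of all measured genes were that much lower and 11.3% that much higher. The 2-fold lower genes were 12 of 18 enzymes, Srebf2 of the 7 SREBP control genes, and Stard4 of the 3 others. In bulk RNA, fewer cells expressing a gene and less RNA per cell cannot be told apart.

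**Figure D1:**
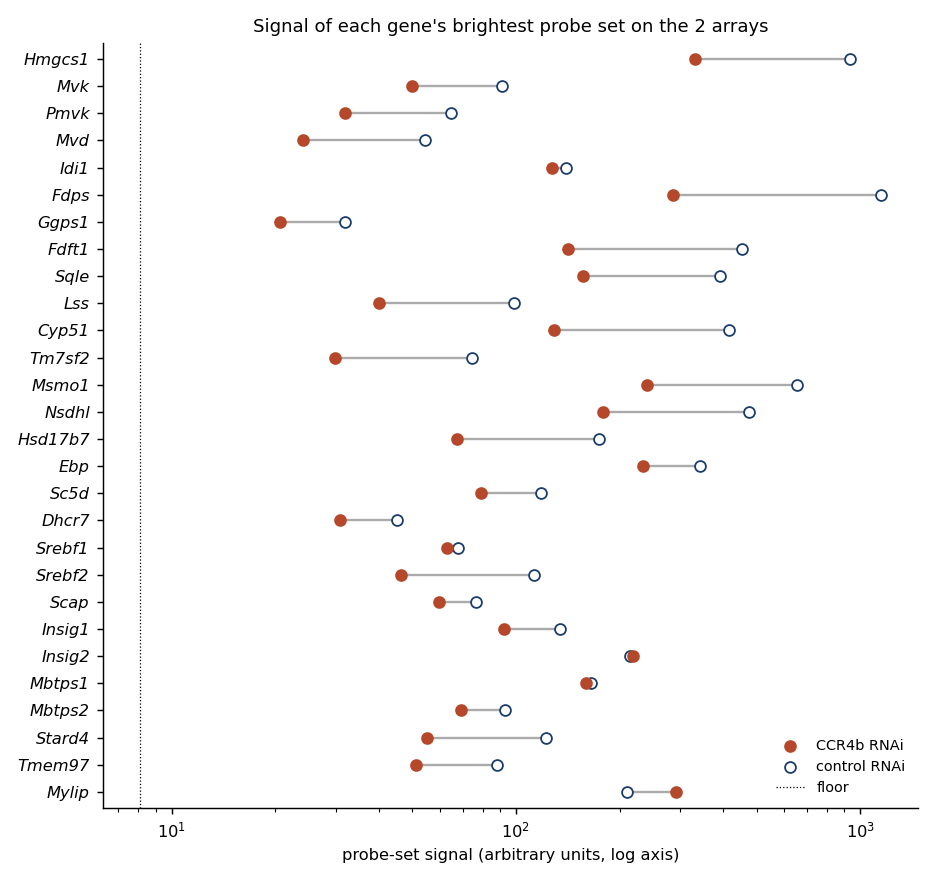
Signal of the brightest probe set of each of the 28 genes on the 2 arrays, in arbitrary units on a log axis, with genes in pathway order from top to bottom. Filled points are CCR4b RNAi, open points control RNAi, the grey bar joins them and the dotted line is the floor of 8.07 units. For all but Insig2 and Mylip the filled point lies left of the open one, and the gap was widest for Fdps, with 287 units after CCR4b RNAi and 1152 in the control.

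The median signal over all 45101 probe sets was 8.34 units in the CCR4b RNAi culture and 7.81 in the control, and the upper quartile was 35.8 units after CCR4b RNAi and 35.9 in the control. The ratio of 3' to 5' signal of Actb was 1.46 after CCR4b RNAi and 1.35 in the control. Cnot6l read 43.0 units after CCR4b RNAi and 102 in the control on its brightest probe set, 2.38-fold lower, and was lower on all 4 of its probe sets. Those that read 5.92 and 2.66 units after CCR4b RNAi were below the floor on that array, so the size of their ratios depends on the floor. All 10 fibroblast markers were above the floor on both arrays. None of 4 endothelial markers reached the floor. Of 6 epithelial markers 2 did, Epcam with 29.5 units after CCR4b RNAi and 19.4 in the control, and Krt5 with 6.04 units after CCR4b RNAi and 8.24 in the control, so that their summed signals were 35.5 units after CCR4b RNAi and 27.6 in the control. Cdh1, Krt8, Krt18 and Krt14 were below the floor on both arrays. Of 4 fat cell markers with a probe set, Fabp4 reached it, with 55.5 units after CCR4b RNAi and 49.1 in the control, while Adipoq, Cidec and Pparg did not. Of 5 leukocyte markers with a probe set, 2 reached the floor, with summed signals of 18.5 units after CCR4b RNAi and 37.7 in the control, led by the macrophage marker Cd68 at 9.42 units after CCR4b RNAi and 24.0 in the control, while Ptprc was below it on both. The part of these markers in the results was not tested.

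Promoter sequence was set beside these counts because most of the enzymes were lower together. RefSeq promoter windows of GRCm38.p6, from 250 bases before to 50 bases after a start, were at hand for 25 of the 29 genes. SREBP binds sterol regulatory elements next to NF-Y, which binds CCAAT boxes, and SP1, which binds GC boxes. Shown first are the 4 genes with the lowest ratios that have a window, which encode lanosterol demethylase (Cyp51), HMG-CoA synthase (Hmgcs1) and enzymes of lanosterol demethylation (Msmo1, Nsdhl). They are followed by the brightest 2 within 1.5-fold, which encode a sterol isomerase (Ebp) and a ubiquitin ligase (Mylip), all written along the gene's own strand. Capitals mark the letters CCAAT or TCACNCCAC on either strand (ATTGG is CCAAT on the other strand), and no matches of different motifs overlapped.
Cyp51 promoter (GRCm38.p6 chr5:4104648-4104947, minus strand): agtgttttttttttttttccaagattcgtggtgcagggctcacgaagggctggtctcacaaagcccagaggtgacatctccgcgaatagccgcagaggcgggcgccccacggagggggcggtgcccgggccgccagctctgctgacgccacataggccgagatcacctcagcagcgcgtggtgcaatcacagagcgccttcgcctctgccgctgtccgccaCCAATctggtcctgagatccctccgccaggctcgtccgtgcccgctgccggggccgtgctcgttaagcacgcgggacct
Hmgcs1 promoter (GRCm38.p6 chr13:119690101-119690400, plus strand): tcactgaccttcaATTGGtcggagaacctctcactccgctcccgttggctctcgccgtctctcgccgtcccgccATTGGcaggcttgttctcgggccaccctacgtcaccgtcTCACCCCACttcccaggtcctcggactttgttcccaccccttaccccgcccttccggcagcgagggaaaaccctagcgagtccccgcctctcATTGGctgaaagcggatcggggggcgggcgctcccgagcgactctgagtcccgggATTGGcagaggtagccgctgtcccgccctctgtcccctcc
Msmo1 promoter (GRCm38.p6 chr8:64733529-64733828, minus strand): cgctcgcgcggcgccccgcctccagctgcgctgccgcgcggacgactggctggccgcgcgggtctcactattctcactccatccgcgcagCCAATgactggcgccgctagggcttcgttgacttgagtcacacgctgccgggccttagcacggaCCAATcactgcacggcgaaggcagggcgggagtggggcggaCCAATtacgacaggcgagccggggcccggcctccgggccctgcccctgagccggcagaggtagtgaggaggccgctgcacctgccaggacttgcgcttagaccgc
Nsdhl promoter (GRCm38.p6 chrX:72918271-72918570, plus strand): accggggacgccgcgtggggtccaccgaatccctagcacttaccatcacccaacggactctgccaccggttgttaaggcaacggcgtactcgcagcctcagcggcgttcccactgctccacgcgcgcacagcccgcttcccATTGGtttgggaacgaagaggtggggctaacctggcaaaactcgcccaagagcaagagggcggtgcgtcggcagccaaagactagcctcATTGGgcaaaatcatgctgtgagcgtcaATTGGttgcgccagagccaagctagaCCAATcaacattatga
Ebp promoter (GRCm38.p6 chrX:8193463-8193762, minus strand): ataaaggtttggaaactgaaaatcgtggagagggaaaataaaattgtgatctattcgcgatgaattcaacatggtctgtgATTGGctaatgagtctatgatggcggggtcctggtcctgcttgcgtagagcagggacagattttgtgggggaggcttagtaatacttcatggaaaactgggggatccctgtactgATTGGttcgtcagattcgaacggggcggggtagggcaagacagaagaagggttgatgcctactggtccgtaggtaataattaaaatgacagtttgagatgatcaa
Mylip promoter (GRCm38.p6 chr13:45389492-45389791, plus strand): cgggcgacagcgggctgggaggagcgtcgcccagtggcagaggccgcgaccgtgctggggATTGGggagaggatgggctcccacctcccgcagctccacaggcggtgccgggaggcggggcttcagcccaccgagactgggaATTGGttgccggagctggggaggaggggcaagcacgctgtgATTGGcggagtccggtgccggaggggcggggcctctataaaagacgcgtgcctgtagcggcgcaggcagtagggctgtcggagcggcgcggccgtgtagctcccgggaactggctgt

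Hmgcs1 carried the only match to TCACNCCAC among the 25 genes, 137 to 129 bases before the start, along with 4 CCAAT boxes. Cyp51 had 1 CCAAT box, Msmo1 had 3 and Nsdhl had 4. Ebp, which was 1.47-fold lower, had 2 and Mylip, which was 1.38-fold higher, had 3. A CCAAT box was present in 21 of the 25 genes (84%), against 43.0% of 9639 other measured genes with a window and 51.2% of the 428 other genes that were at least 2-fold lower. It was in all 10 of the genes with a window that were at least 2-fold lower and in 11 of the 14 others with values. Genes without one were Acat2, Scap, Mbtps1 and Mbtps2. Over all 32851 windows, 37.4% held CCAAT, 1.24% TCACNCCAC, 35.7% GGGCGG (the GC box) and 7.15% CACGTG (the E-box). For GGGCGG the share was 88% of the 25 genes and 67.4% of other measured genes, and for CACGTG 20% and 11.6%. A match to letters is a description of the window and not a bound site, and only these windows were searched. Only these exact letters were searched for, so a sterol regulatory element spelled otherwise was not counted or marked. A gene without a match to TCACNCCAC is therefore not shown to lack the element.

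**Figure D2:**
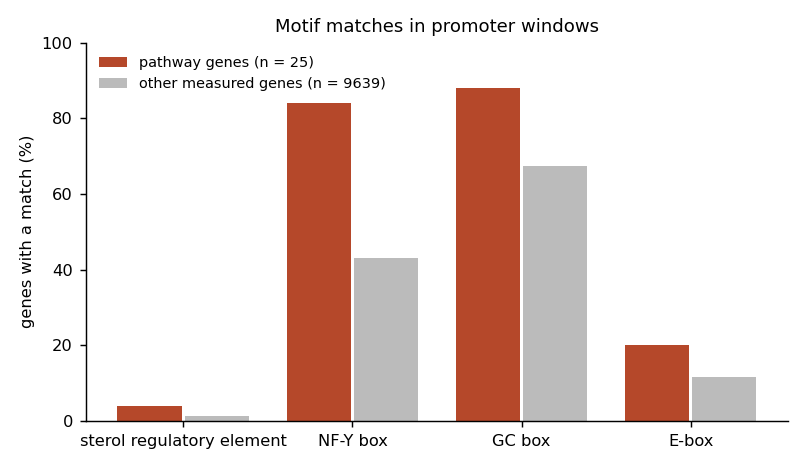
Percent of genes with at least 1 match of each motif in a promoter window of the RefSeq table, for the 25 sterol and SREBP genes with a window and for 9639 other measured genes. Bars start at 0. The NF-Y box bars stand at 84% for the sterol and SREBP genes and 43.0% for the other genes, the widest gap of the 4 motifs.

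The first part of the route makes mevalonate and joins its products into farnesyl diphosphate. Of its 6 measured enzymes, 4 were at least 2-fold lower after CCR4b RNAi, and their median log2 ratio was -1.10. Hmgcs1, the synthase that makes HMG-CoA, read 331 units after CCR4b RNAi and 932 in the control, 2.81-fold lower. Its 3 next probe sets had log2 ratios between -1.57 and -1.20, so all of its bright probe sets were lower by like amounts. The dimmest one passed below the floor, at 3.72 units after CCR4b RNAi and 14.5 in the control.

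Mevalonate is then phosphorylated and decarboxylated by 3 enzymes. Mvk, mevalonate kinase, read 49.99 units after CCR4b RNAi and 91.3 in the control, a log2 ratio of -0.87, with -0.58 on its second probe set. Pmvk, phosphomevalonate kinase, read 31.9 units after CCR4b RNAi and 64.9 in the control, 2.03-fold lower and so close to the 2-fold threshold. For Mvd, the decarboxylase, the signals were 24.0 units after CCR4b RNAi and 54.4 in the control. Both of its probe sets gave nearly the same difference, with log2 ratios of -1.18 and -1.21.

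The next pair of enzymes lay at opposite ends of the group. Idi1, the isomerase that makes dimethylallyl diphosphate, read 127 units after CCR4b RNAi and 140 in the control, a log2 ratio of -0.14, and its second probe set read 59.4 units after CCR4b RNAi and 50.6 in the control, a log2 ratio of 0.23. It was thus the enzyme with the smallest difference, and the sign depended on the probe set, with a median of 0.048 over both. Fdps, farnesyl diphosphate synthase, read 287 units after CCR4b RNAi and 1152 in the control. That was 4.02-fold lower, rank 14 from the lowest among all 11915 genes and the lowest ratio in its signal class, the brightest of 10. Its other probe set was below the floor on both arrays.

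Ggps1, which makes geranylgeranyl diphosphate on the isoprenoid branch, had no settled direction. Its brightest probe set, open to cross-hybridisation, read 20.6 units after CCR4b RNAi and 32.0 in the control, a log2 ratio of -0.63. The next 2 probe sets were higher instead, with log2 ratios of 0.31 and 0.48. The last one read 15.3 units after CCR4b RNAi and was below the floor in the control. The median over its probe sets was 0.39.

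From squalene onward 8 of 11 enzymes were at least 2-fold lower, with a median log2 ratio of -1.32. Fdft1, squalene synthase, committed to sterols, read 142 units after CCR4b RNAi and 453 in the control on a probe set open to cross-hybridisation. That was 3.19-fold lower, and a specific probe set had a log2 ratio of -1.47. Sqle, squalene epoxidase, a rate-limiting step, read 157 units after CCR4b RNAi and 393 in the control, 2.50-fold lower on its only probe set.

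Lss, which closes the ring to give lanosterol, read 40.0 units after CCR4b RNAi and 98.5 in the control, 2.46-fold lower. That brightest probe set is open to cross-hybridisation. The others were dim and differed less, with log2 ratios of -0.34 and 0.20, so the size of the difference for Lss depends on which probe set is read.

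The 5 enzymes that follow act in the steps that take the methyl groups off lanosterol, and each of them was between 2.49-fold and 3.21-fold lower. Cyp51, lanosterol demethylase, read 129 units after CCR4b RNAi and 415 in the control, with log2 ratios of -1.68 and -1.85 on its 2 bright probe sets. Tm7sf2, a sterol reductase, had 29.9 units after CCR4b RNAi and 74.5 in the control. Msmo1, the methylsterol oxidase, had 241 units after CCR4b RNAi and 655 in the control, 2.72-fold lower.

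Nsdhl, the decarboxylating dehydrogenase of the same sequence of steps, read 179 units after CCR4b RNAi and 476 in the control, 2.66-fold lower. Hsd17b7, the keto-sterol reductase, read 67.2 units after CCR4b RNAi and 175 in the control. Its 3 measured probe sets were all lower, with log2 ratios of -1.38, -1.27 and -1.12. Over the 5 genes, the log2 ratios of the brightest probe sets ran from -1.68 to -1.32.

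The last 3 enzymes differed less than the demethylation steps before them. Ebp, the sterol isomerase, read 234 units after CCR4b RNAi and 344 in the control, a log2 ratio of -0.55. Sc5d, a sterol desaturase, read 79.2 units after CCR4b RNAi and 118 in the control, a log2 ratio of -0.58, but its dimmer probe sets had 0.50 and 0.27, and the median over all 3 was 0.27. Dhcr7, which makes cholesterol from its last precursor, read 30.8 units after CCR4b RNAi and 45.0 in the control, a log2 ratio of -0.55. These 3 values are close to the spread of ratios in the gene's own signal class, given as a robust SD (a median absolute deviation, scaled), which was 0.41 for Ebp, 0.43 for Sc5d and 0.57 for Dhcr7. The split into demethylation and last steps was drawn after the values were seen.

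**Figure D3:**
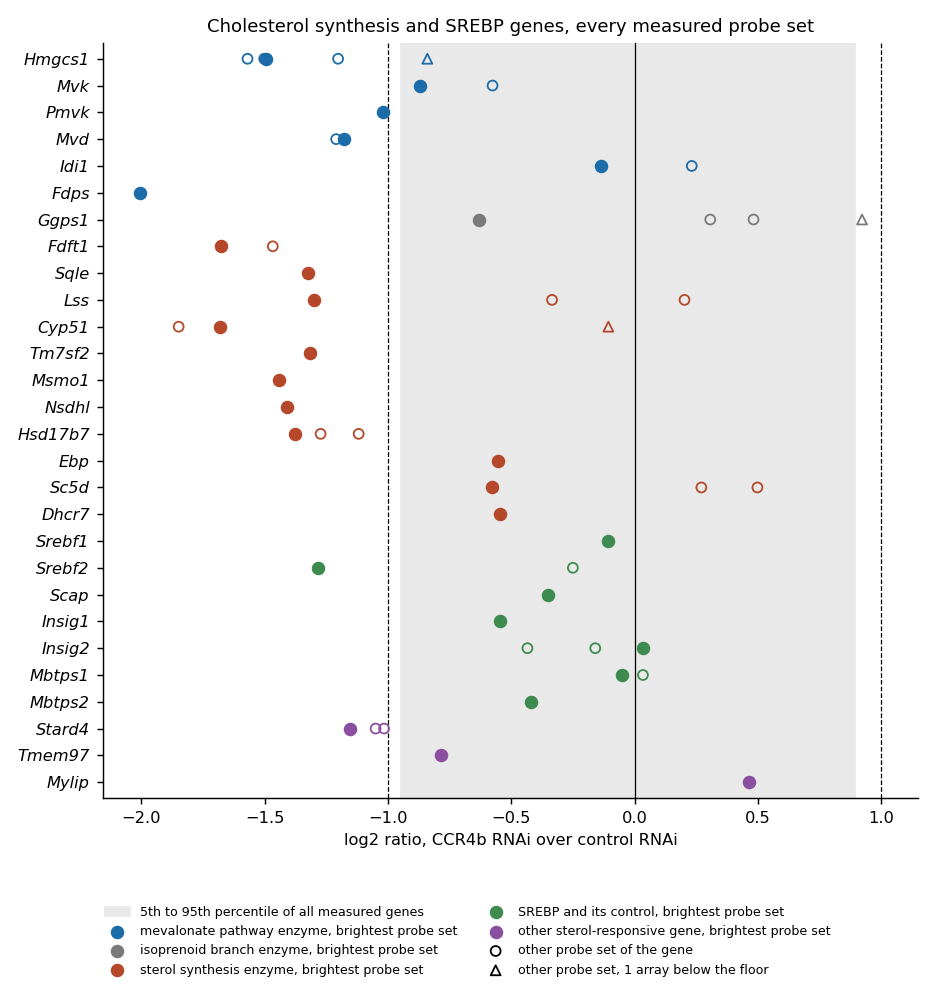
Log2 ratio of CCR4b RNAi over control RNAi for every measured probe set of the 28 genes, in pathway order from top to bottom. Filled points are each gene's brightest probe set, open circles the others, triangles probe sets below the floor on 1 array, the grey band holds 90% of all measured genes (5th to 95th percentile, -0.95 to 0.89) and dashed lines mark 2-fold. The enzymes from Fdft1 to Hsd17b7 sit left of the 2-fold line on their brightest probe set, whereas Ebp, Sc5d, Dhcr7 and all SREBP control genes except Srebf2 sit inside the band.

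The 28 genes share 1 culture and 1 array per group, so the genes are not replicates of the knockdown. On 50 of their probe sets both arrays were above the floor. Of these 50, 41 had a log2 ratio below 0 and 9 above, and 24 were past 2-fold lower against 0 past 2-fold higher. These counts were not made over all probe sets. By brightest probe set, 6671 of all 11915 measured genes were below 0 and 5244 above. By the same reading, 4.48% were past 2-fold lower and 3.74% past 2-fold higher. In 14 of the 28 genes at least 2 probe sets were above the floor on both arrays. The brightest and the next had the same sign in 9 of these 14, where 3086 of 4550 such genes did over the whole array. Where a gene's brightest probe set was at least 2-fold lower and a second one was above the floor, the second was below 0 in 8 of 8 genes and at least 2-fold lower in 6. Over all genes the second was below 0 in 183 of 202 such genes and at least 2-fold lower in 92. Probe sets of 1 gene read the same RNA on the same arrays, so these counts speak of the reading and not of the cultures.

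**Figure D4:**
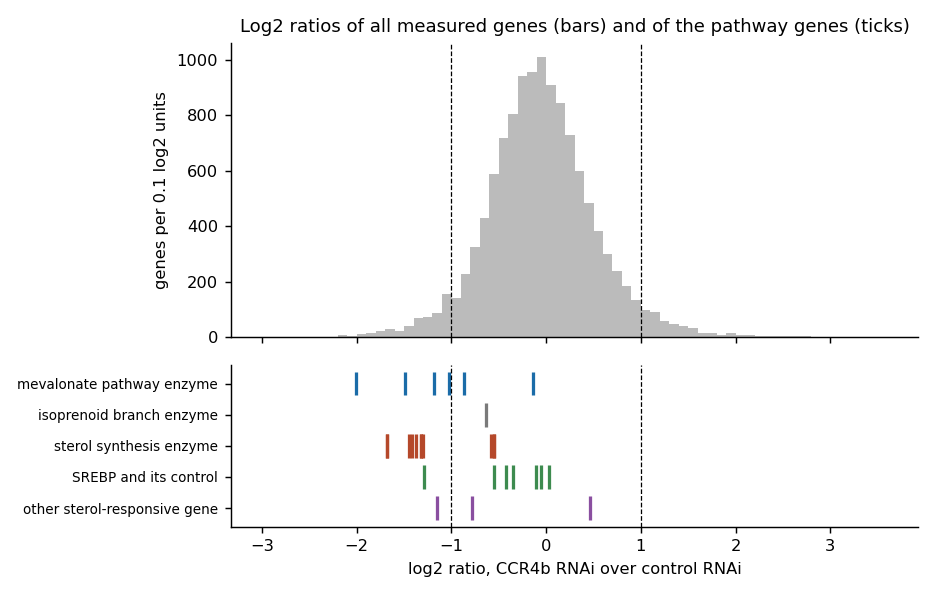
Distribution of the log2 ratio, CCR4b RNAi over control, across all 11915 measured genes (bars, genes per 0.1 log2 units) and the values of the 28 genes by role (ticks, brightest probe set). Dashed lines mark 2-fold. Of the 11 ticks of sterol synthesis enzymes, 8 lie beyond the left line, as do 4.48% of all measured genes.

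The SREBP control genes had a median log2 ratio of -0.35, and 1 of 7 was at least 2-fold lower. Srebf2, which encodes SREBP-2, read 46.4 units after CCR4b RNAi and 113 in the control on its brightest probe set, 2.44-fold lower. Its second probe set, of nearly the same brightness, read 52.6 units after CCR4b RNAi and 62.6 in the control, a log2 ratio of only -0.25. Both were annotated to Srebf2 alone, and the median over them was -0.77, so the direction was shared while the 2-fold call rests on 1 probe set. Srebf1, which encodes SREBP-1, read 62.9 units after CCR4b RNAi and 67.9 in the control, a log2 ratio of -0.11 that turned to 0.0024 with quantile normalization.

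The genes of the escort and retention proteins differed by less than 1.5-fold on their brightest probe sets. Scap, the sterol-sensing escort, read 59.8 units after CCR4b RNAi and 76.4 in the control, a log2 ratio of -0.35. Insig1, a retention protein that is itself an SREBP target, read 92.1 units after CCR4b RNAi and 135 in the control, a log2 ratio of -0.55. Insig2, its paralogue, read 219 units after CCR4b RNAi and 214 in the control, a log2 ratio of 0.035, or -0.059 after scaling both arrays to a common median. Its dimmer probe sets had log2 ratios of -0.43 and -0.16. Insig1 was lower under each of the 8 alternative settings tried, and Insig2 was not.

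The genes of the proteases that release SREBP were not past 1.5-fold either. Mbtps1, the protease of the first cut, read 159 units after CCR4b RNAi and 165 in the control, a log2 ratio of -0.051 that turned to 0.099 with quantile normalization and 0.092 with loess. Mbtps2, the membrane protease of the second cut, read 69.3 units after CCR4b RNAi and 92.7 in the control, a log2 ratio of -0.42. The robust SD in its signal class was 0.43, about the size of its difference.

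The 3 remaining genes went both ways. Stard4, a soluble sterol carrier and SREBP-2 target, read 55.0 units after CCR4b RNAi and 122 in the control, and its 3 probe sets had log2 ratios of -1.15, -1.05 and -1.02. Tmem97, a sterol-responsive membrane protein, read 51.2 units after CCR4b RNAi and 88.3 in the control, a log2 ratio of -0.79. Mylip encodes a ubiquitin ligase, induced by the oxysterol receptor LXR, that marks lipoprotein receptors for degradation. It read 291 units after CCR4b RNAi and 211 in the control, 1.38-fold higher and the highest log2 ratio of the 28 genes, at 0.46. The robust SD in its signal class was 0.41.

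Other genes of the pathway were taken from lists chosen by function. Among partners of sterol enzymes, 0 of 4 measured genes were past 2-fold in either direction, with a median log2 ratio of -0.086. Over all measured genes, 4.48% were past 2-fold lower and 3.74% past 2-fold higher. The cytochrome partners of the oxidation steps had log2 ratios of -0.088 (Cyb5r3) and 0.39 (Cyb5a). Factors that turn over sterol-sensing proteins or SREBP also had 0 of 9 past 2-fold and a median of 0.081, with Fbxw7, a ubiquitin ligase subunit that targets nuclear SREBP, at 0.42 on its brightest and -0.32 on its other probe set.

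Fatty acid genes driven by SREBP-1 were lower by less. None of 16 measured genes was past 2-fold in either direction on its brightest probe set, and 6 were past 1.5-fold lower and 1 past 1.5-fold higher. Over all measured genes, 14.6% were past 1.5-fold lower and 11.3% past 1.5-fold higher. Of the 16, 12 had a log2 ratio below 0 and 4 above, where 6671 of all 11915 measured genes were below 0. On both arrays, 15 of the 16 were above the floor. Thrsp, 1 of the 4 above 0, read 11.4 units after CCR4b RNAi and was below the floor in the control. It thus counted as measured through the CCR4b RNAi array alone. The median log2 ratio of the 16 was -0.51, beside -1.31 for the 18 cholesterol enzymes. Acly, which makes cytosolic acetyl-CoA for both routes, read 239 units after CCR4b RNAi and 429 in the control, with log2 ratios between -0.84 and -0.55 over its 5 measured probe sets. Scd1, a desaturase, read 239 units after CCR4b RNAi and 427 in the control, with a log2 ratio of -1.71 on its other probe set. Fads2 had a log2 ratio of -0.71 on its brightest probe set and -1.39 on its lowest. Fasn, fatty acid synthase, read 106 units after CCR4b RNAi and 162 in the control. Lpin1, a phosphatidate phosphatase, went the other way, with 74.2 units after CCR4b RNAi and 41.1 in the control. With 1 array per group, the difference between the lists has no test.

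Genes activated by LXR, the receptor that responds to sterol excess, included 2 of 7 measured genes past 2-fold higher and 0 past 2-fold lower. The shares over all measured genes were 3.74% higher and 4.48% lower. The median log2 ratio of the 7 was 0.43, and 5 of the 7 were above the floor on both arrays. Lpl, lipoprotein lipase, read 1554 units after CCR4b RNAi and 374 in the control, 4.15-fold higher, with a log2 ratio of 2.32 on its other probe set. Abca1, the cholesterol exporter, had a log2 ratio of 2.54 on its brightest probe set and 0.031 on its least different one. Abcg1, another exporter, read 10.9 units after CCR4b RNAi and Nr1h3, which encodes LXR alpha, 9.99 units, and both lay under the floor in the control. Both thus counted as measured through the CCR4b RNAi array alone. The median of 0.43 is the ratio of Abcg1, with its control signal raised to the floor. Among these LXR genes with a value, Abcg4 and Lpcat3 had log2 ratios below 0.

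Proliferation genes were lower on these arrays too. Of 16 measured, 12 were past 2-fold lower after CCR4b RNAi and 0 past 2-fold higher, against 4.48% and 3.74% of all measured genes. Their log2 ratios ran from -1.92 to -0.66 with a median of -1.29. Their summed signals were 2968 units after CCR4b RNAi and 6525 in the control. The lowest were Mcm5, a subunit of the replicative helicase, with 113 units after CCR4b RNAi and 425 in the control, the mitotic kinase Aurka, with 48.9 units after CCR4b RNAi and 176 in the control, and the checkpoint kinase Bub1, with 33.8 units after CCR4b RNAi and 122 in the control but a log2 ratio of 0.37 on its other probe set. The part of this difference in the sterol enzyme values was not tested, and with 1 culture per group the 2 cannot be told apart.

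**Figure D5:**
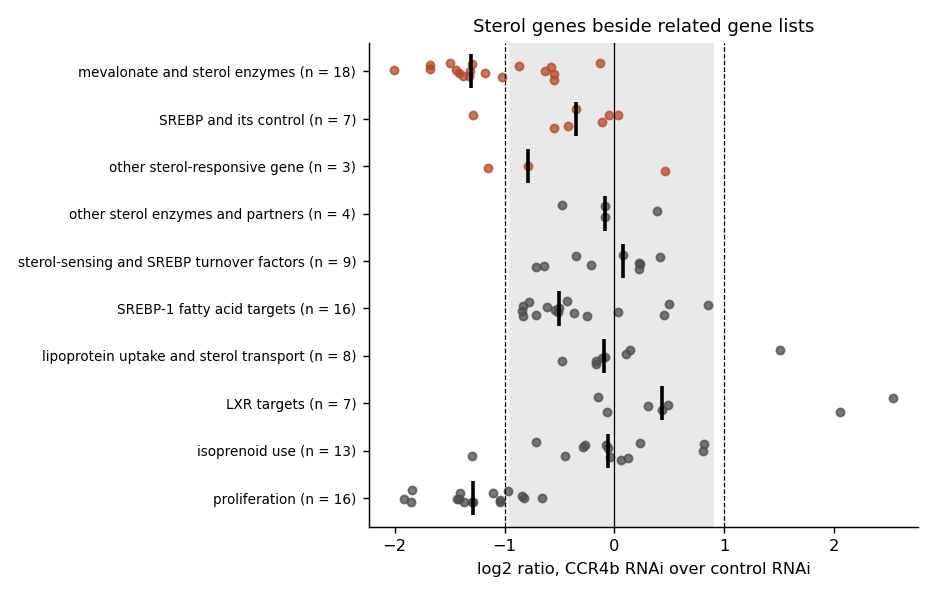
Log2 ratio of CCR4b RNAi over control RNAi (x axis) for each measured gene (points) of the sterol and SREBP genes by role (red) and of 7 related lists (dark grey), with black bars at the medians, the grey band at the 5th to 95th percentile of all measured genes and dashed lines at 2-fold. The cholesterol enzymes (median -1.31) and the proliferation genes (median -1.29) lie furthest left, the SREBP-1 fatty acid targets between them and 0 (median -0.51), and LXR targets reach 2.54.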

How the data were processed

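Total RNA of 2 NIH3T3 cultures was read on Affymetrix Mouse Genome arrays, 1 array per group. The deposited table holds linear probe-set intensity values, which the authors computed in GCOS with a global normalization, per the series design text. The sources used here give no GCOS version, normalization target or detection calls. Platform annotation gave 34958 probe sets 1 gene symbol and 932 several, and 9211 are not listed and so unnamed here. Only those with 1 symbol were used, and 34754 of them matched the GRCm38.p6 RefSeq gene table.

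Signals were raised to a floor, the 50th percentile of all values (8.07 units), and the log2 ratio was taken as CCR4b RNAi over control. Each gene was represented by its brightest probe set (mean log2 signal). Probe sets ending in _x_at or _s_at are called open to cross-hybridisation. Spread among genes of like signal is the robust SD in 1 of 10 equal signal classes. All members are named, as are up to 3 genes per direction and list past 2-fold. Other genes named from those lists, and the demethylation and last-step groups, were chosen after their values were seen. Members, lists and motifs were chosen with earlier results of these data known. The ratio code was tested on simulated data and the motif code on short written sequences. Python 3.11.15, numpy 2.4.6 and pandas 2.3.3 were used.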

Additional observations from a re-analysis of the deposited data

How the results depend on the processing

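With 1 array per group no value has a replicate error, and array number limits the precision. No paired analysis was possible because each group holds 1 array. The alternatives were 3 other scalings, 3 other floors and 2 other choices of probe set. Across these 8, the count of members at least 2-fold lower lay between 12 and 14 and that of members as much higher stayed at 0. The median log2 ratio lay between -1.04 and -0.75 for all measured members, between -1.40 and -1.19 for the enzymes and between -0.45 and -0.24 for SREBP control genes. All 14 members that were 2-fold lower kept a log2 ratio below 0 under all 8, and 10 stayed at least 2-fold lower. The exceptions were Pmvk (highest value -0.86), Mvd (-0.60 with the floor at the 75th percentile), Lss (-0.34 without probe sets open to cross-hybridisation) and Srebf2 (-0.77 as the median over probe sets). Of the other members, 6 changed sign under at least 1 alternative, namely Idi1, Ggps1, Sc5d, Srebf1, Insig2 and Mbtps1. Over all genes, 534 were at least 2-fold lower and 446 higher. These counts became 1791 and 1787 with the floor at the 25th percentile, 2048 and 2009 without a floor (log2 of signal plus 1), and 265 and 126 with the floor at the 75th percentile, where fewer genes are tested. Dividing each array by its median moved the median of all genes most among the scalings, by -0.088 log2 units.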

Other observations

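Users of isoprenoids and carriers of sterols were looked at beside the synthesis genes. Of 13 measured genes that consume isoprenoids, 1 was at least 2-fold lower and 0 were as much higher after CCR4b RNAi, with a median log2 ratio of -0.056. Among all measured genes, 4.48% were that much lower and 3.74% higher, so 1 gene of 13 is not read as a trait of this list. The 2-fold lower gene was Pdss2, a subunit of the synthase for the ubiquinone side chain, at 15.6 units after CCR4b RNAi and 38.4 in the control. Enzymes of prenylation spread to both sides, with Icmt, which methylates prenylated proteins, at 43.4 units after CCR4b RNAi and 24.9 in the control, and Rabggta, a subunit of Rab geranylgeranyl transferase, at 18.7 units after CCR4b RNAi and 10.6 in the control. Fnta, the alpha subunit of farnesyl transferase, had a log2 ratio of -0.075.

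Among 8 measured genes of lipoprotein uptake and sterol transport, 1 was at least 2-fold higher and 0 were as much lower, with a median log2 ratio of -0.098. Over all measured genes, 3.74% were that much higher and 4.48% lower, so 1 gene of 8 is not read as a trait of this list. Npc1, which exports cholesterol from lysosomes, read 35.6 units after CCR4b RNAi and 12.5 in the control, 2.84-fold higher on its only probe set. Npc2, its soluble partner, read 2334 units after CCR4b RNAi and 2110 in the control on its brightest probe set, while its 4 measured probe sets had log2 ratios from -0.0071 to 1.62.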
